A study of Mus musculus with 2 samples.

Results

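The sarcoplasmic reticulum calcium pumps and their classical micropeptide regulators were taken by gene symbol: the 3 pump genes Atp2a1, Atp2a2 and Atp2a3, and the 2 micropeptide genes Sln and Pln. All 5 carried reads, out of 15371 annotated genes with at least 1 read. Long-read RNA sequencing, which reads a transcript in one piece and so shows which exons lie together, was done on gastrocnemius, the large fast muscle of the calf. The study holds 1 group: female B6CASTF1/J mice aged 2 months, a first-generation cross of B6 and CAST mice, with no treatment or engineered allele named in the labels. Each of the 2 libraries was made from 2 µg of RNA, replicate 1 from animal 3 and replicate 2 from animal 4. Since one donor identifier stands in the labels of both, that they are 2 animals is known from those numbers alone. Every test below sets the reads of these 2 libraries against each other. None has a replicate check. Intervals and p-values cover counting error only, except in edgeR's exact test, where variation between animals was assumed and not estimated.

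In a muscle fibre, calcium released from the sarcoplasmic reticulum starts contraction, and pumps of the SERCA family return it to the store with energy from ATP, which ends contraction. Atp2a1 encodes SERCA1, the pump of fast fibres, Atp2a2 encodes SERCA2, the pump of slow fibres, heart and, in a longer form, most other cells, and Atp2a3 encodes SERCA3, known from blood, endothelial and epithelial cells. Sarcolipin (Sln) and phospholamban (Pln) are small membrane proteins that bind the pump and slow it. In rodents Pln is known mainly from heart and slow muscle, and Sln mainly from the atria and from slow and developing muscle.

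The libraries held 1349298 and 1359923 reads in replicates 1 and 2. A gene's level is given as CPM, its reads per megaread of the library. Markers fixed as lists matched a mostly fast muscle. The 12 fast fibre markers summed to 69701 CPM in replicate 1 and 70065 CPM in replicate 2, and the 9 slow fibre markers to 1498 and 8750 CPM. The 7 heart muscle markers summed to 12 reads in replicate 1 (8.89 CPM) and 14 in replicate 2 (10.3 CPM). Myh6, the alpha myosin heavy chain, held 12 and 13 of these reads and Tnnt2 held 0 and 1. Nppa, Nppb, Tnni3, Mybpc3 and Ryr2 had 0 in both libraries, which allows up to 2.22 and 2.21 CPM each.

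Atp2a1 was the most abundant gene of both libraries. It held 201493 reads in replicate 1 (149332 CPM) and 194599 in replicate 2 (143096 CPM), a mean of 146214 ± 4410 CPM (SD, n = 2). Atp2a2 held 191 reads in replicate 1 (142 CPM) and 1082 in replicate 2 (796 CPM), a mean of 469 ± 463 CPM (SD, n = 2). The spread of Atp2a2 was as large as its mean, whereas that of Atp2a1 was small beside its mean. Atp2a3 held 2 reads in replicate 1 and 3 in replicate 2 (1.84 ± 0.512 CPM, SD, n = 2). Pln held 10 and 22 reads (11.8 ± 6.20 CPM, SD, n = 2), and Sln held 5 and 2 reads (2.59 ± 1.58 CPM, SD, n = 2). Of all reads on the pump genes, Atp2a1 took 99.9% in replicate 1 and 99.4% in replicate 2. Atp2a2 took 0.0947% (95% Wilson interval 0.0822 to 0.109) and 0.553% (0.521 to 0.587).

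**Figure D1:**
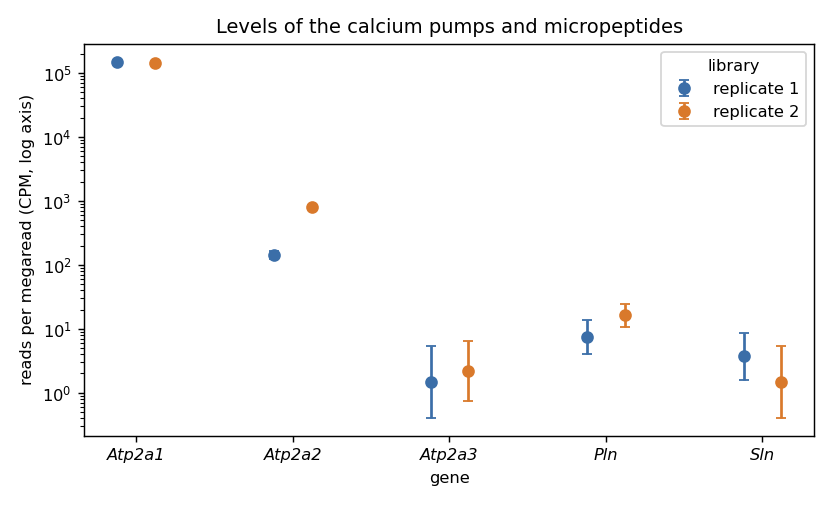
Reads per megaread (CPM, log axis) of the 5 genes in replicate 1 and replicate 2; bars are 95% Wilson intervals of the read count. Atp2a1 lies near 146214 CPM in both libraries, Atp2a2 at 142 and 796 CPM, and Pln, Sln and Atp2a3 at 16.2 CPM or less with wide intervals.

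As a second scale beside read counts, CPM was divided by the mean length in kilobases of the transcript models that the reads were assigned to, weighted by reads. The divisor is model length, which is not read length. On this scale Atp2a1 stood at 43219 and 41351 CPM per kilobase in replicates 1 and 2, and Atp2a2 at 36.0 and 204. Per kilobase, the level of Atp2a1 was therefore 1202 times that of Atp2a2 in replicate 1 and 203 times in replicate 2. By reads alone the ratios were 1055 (95% interval 915 to 1216) and 180 (169 to 191). Pln followed at 7.53 and 30.2 CPM per kilobase, then Sln at 2.81 and 1.12 and Atp2a3 at 0.684 and 0.826. With all assigned reads counted, the order of the first 3 genes was the same in both libraries. The last neighbours in the order could not be told apart: the ratio of Sln to Atp2a3 reads was 2.50 (95% interval 0.560 to 11.2) in replicate 1 and 0.667 (0.133 to 3.33) in replicate 2. Pln and Sln were likewise not separated in replicate 1, at a read ratio of 2.00 (0.716 to 5.59), but were in replicate 2, at 11.0 (2.87 to 42.2). A shorter model length for Pln, set out below, raises its value per kilobase, and that length may not be the length of its reads. The third place of Pln also rests on reads assigned to unspliced models. Reads whose models covered the whole coding region numbered 4 and 7 for Pln and 5 and 2 for Sln in replicates 1 and 2. By these few reads the order of Pln and Sln differed between the libraries.

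Between the 2 libraries, 9341 genes had at least 10 reads summed and were tested by Fisher's exact test, two-sided, of a gene's reads against all other reads. At a Benjamini-Hochberg adjusted p under 0.05, 730 of them (7.82%) were called. The calls comprised 397 genes higher in replicate 2 (4.25%) and 333 lower (3.56%). Of the 5 members 3 could be tested, and 2 were called. Atp2a2 was 5.62-fold higher in replicate 2 (95% interval 4.82 to 6.55; adjusted p = 5.87e-147, Fisher's exact test). Atp2a1 was at 0.958 times its level in replicate 1 (0.952 to 0.964; adjusted p = 3.23e-45, Fisher's exact test), a small difference resolved by the number of its reads. Pln was at 2.18 times (1.05 to 4.53), and its adjusted p of 0.281 by the same exact test did not pass the threshold. Sln and Atp2a3 had too few reads to be tested.

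A test with an assumed amount of variation between animals, set and not estimated from these data, left 1 of these calls. With edgeR's exact test at an assumed dispersion of 0.01, a biological coefficient of variation of 10%, 175 genes (1.87%) were called, 86 higher (0.921%) and 89 lower (0.953%) in replicate 2. Atp2a2 remained among them (log2 ratio 2.50, adjusted p = 9.82e-23). Atp2a1 did not (log2 ratio -0.06, adjusted p = 1.00), nor did Pln (log2 ratio 1.12, adjusted p = 0.594). In a bulk sample, fewer cells of a type and less RNA per cell cannot be told apart. Beside the higher Atp2a2, 8 of 9 slow fibre markers were called higher in replicate 2 and 0 lower by Fisher's exact test. Of all genes tested, 4.25% were called higher and 3.56% lower by that test. The slow fibre markers had a median log2 ratio of (CPM + 1) of 2.28 against -0.01 over all genes tested. By edgeR's exact test 7 of the 9 were called higher. Smooth muscle markers, from cells that use SERCA2b, went the other way. By Fisher's exact test 4 of 5 were called lower in replicate 2 and 0 higher. Their summed level was 221 CPM in replicate 1 and 89.0 CPM in replicate 2, with a median log2 ratio of -1.26. By edgeR's exact test 3 of them, Acta2, Cnn1 and Myl9, were called lower. The part of either list in the Atp2a2 difference, or in the share of its forms given below, was not tested.

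**Figure D2:**
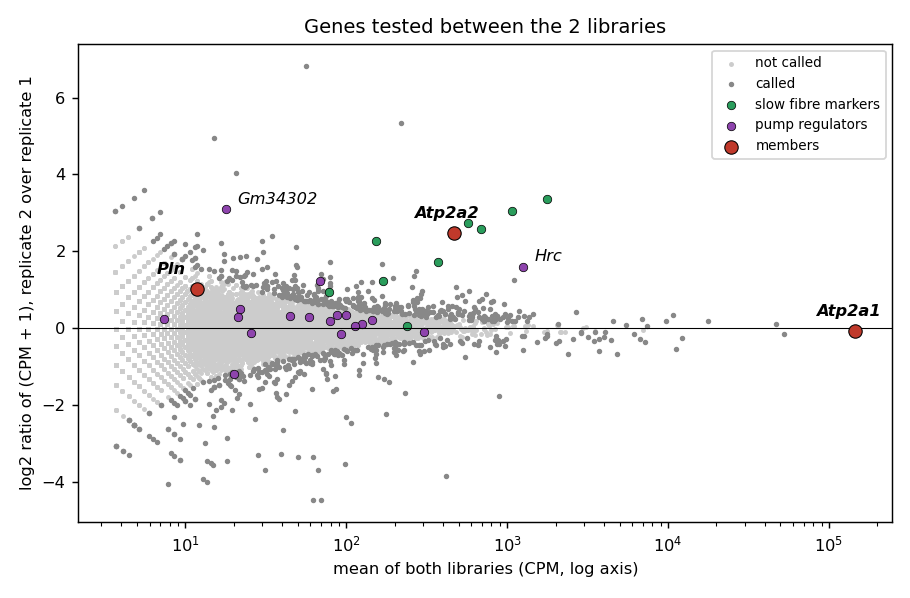
Log2 ratio of (CPM + 1), replicate 2 over replicate 1, against the mean level (CPM, log axis) for the 9341 genes tested; each point is a gene, dark grey where called by Fisher's exact test, with the members in red, slow fibre markers in green and pump regulators in purple. Atp2a2 lies among the slow fibre markers above 0, Atp2a1 lies at the far right close to 0, and Pln lies within the spread of genes of its level.

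The genes nearest to each member by log2 ratio between the libraries were taken from the 2987 genes with at least 100 reads summed. For Atp2a2 (log2 ratio 2.49) these were Tpm3 at 2.59, a slow tropomyosin gene, Tnni1 at 2.30, slow troponin I, and Tnnc1 at 2.73, the troponin C of slow and heart muscle. All 3 are slow fibre markers of the list. For Atp2a1 (-0.06) the nearest were Hadha, an enzyme of fatty acid oxidation, Asb10 and Ywhae, each at -0.06. For Pln (1.13) they were Khdrbs3, Myog and mt-Rnr2, each at 1.12. With 2 libraries this likeness rests on 1 ratio per gene.

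The pump genes share an exon plan. Exon 2 is 18 bases long in all 3. With exons 8 and 9 of Atp2a1 joined, its exons 2 to 21 matched Atp2a3 in length at 19 of 19 places and Atp2a2 at 17 of 19. The next exons lay outside this count and differ, with 42 bases in exon 22 of Atp2a1 and 73 in exon 21 of Atp2a3. Exon 2 is shown here, from the GENCODE M21 transcripts on build mm10, because Atp2a1 and Atp2a2 reads treated it in opposite ways. Capitals mark exon 2 and lower case the 15 bases of exon 1 before it and of exon 3 after it, on the coding strand. It lies at chr7:126462500-126462517 in Atp2a1, chr5:122500931-122500948 in Atp2a2 and chr11:72970596-72970613 in Atp2a3.
Atp2a1 exon 2: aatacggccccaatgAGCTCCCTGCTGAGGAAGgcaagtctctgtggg
Atp2a2 exon 2: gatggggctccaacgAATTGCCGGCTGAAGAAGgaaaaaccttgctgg
Atp2a3 exon 2: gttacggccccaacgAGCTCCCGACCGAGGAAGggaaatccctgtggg
Of the 18 bases, Atp2a1 shared 13 with Atp2a2 and 15 with Atp2a3 at the same position, and Atp2a2 shared 12 with Atp2a3.

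Exon 2 was almost absent from the Atp2a1 reads. It was held by 1 of the 196045 reads of replicate 1 that could show it and by 1 of 190313 in replicate 2. In Atp2a2 it was held by 155 of 168 reads of replicate 1 (92.3%, 95% Wilson interval 87.2 to 95.4) and by 915 of 973 of replicate 2 (94.0%, 92.4 to 95.4). The Atp2a3 reads did not reach this exon. The difference between the libraries was not called in either gene (adjusted p = 1.00 for both, Fisher's exact test over 40120 internal exons, of which 0.0224% were called).

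Among all 22 annotated internal exons of 18 bases with enough reads, 5 were held by over 50% of reads in both libraries. These were in Trdn, Pdlim5, Atp2a2, Anxa6 and Lrrfip1, named after their values were seen. The other 17, exon 2 of Atp2a1 among them, were held by 0.165% of reads or fewer. More widely, of the 147 tested exons of 20 bases or fewer, 131 (89.1%) were held by under 5% of reads, against 3.49% of the 38051 exons over 50 bases. The part of read placement in the loss of exon 2 from Atp2a1 was not tested.

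**Figure D3:**
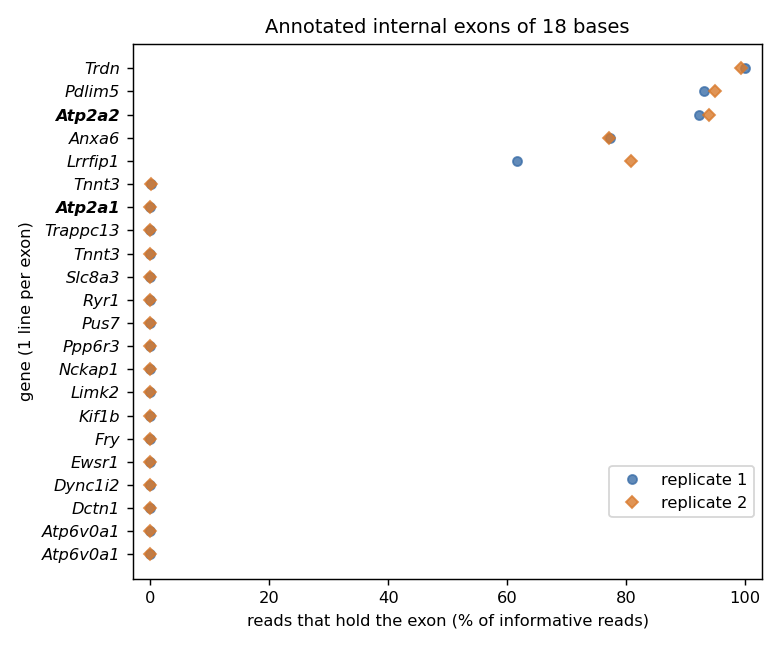
Percent of informative reads that hold each of the 22 annotated internal exons of 18 bases, 1 line per exon named by its gene, in replicate 1 (circles) and replicate 2 (diamonds). Atp2a2 lies at 92.3% and 94.0%, while Atp2a1 lies at 0 on this axis with 16 others.

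Nearly all Atp2a1 reads had 1 structure, and it was not the annotated one. The gene lies at chr7:126445858-126463108 on the minus strand, and its annotated full-length transcript has 23 exons, 3477 bases and 994 codons. A model of 22 exons and 3485 bases took 191477 reads in replicate 1 (95.0%) and 185860 in replicate 2 (95.5%). It lacks exon 2, and its exon 1 runs 26 bases past the annotated edge, a net gain of 8 bases, which is not a multiple of 3 and lies inside the coding region. Without genome sequence the 26 added bases were not compared with exon 2, and whether they are misplaced bases of exon 2 was not tested. No read was assigned to an annotated Atp2a1 transcript, which allows shares of up to 0.00149% (replicate 1) and 0.00154% (replicate 2). The next most frequent edge of exon 1 lay 4 bases past the annotated one, in 431 reads of replicate 1 (0.220%) and 430 of replicate 2 (0.226%). That edge recurred in Atp2a2, where 13 and 56 reads that skipped exon 2 used an exon 1 that ran 4 bases past its annotated edge, a net loss of 14 bases. The annotated edge of Atp2a1 exon 1 was used by 91 and 80 reads.

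The remaining Atp2a1 models were many and thin. There were 638 models in replicate 1, 402 of them with 1 read, and 605 in replicate 2, 380 of them with 1 read. Across both libraries 981 intron chains were seen, and the 262 found in both held 99.8% of the reads of each library. The next most frequent models included annotated structures cut short at the 5′ end. One of 16 exons had 964 and 702 reads, and one of 19 exons had 654 and 506. An unannotated model of 22 exons and 3480 bases had 689 and 658 reads. A model of 21 exons and 3903 bases, classed as an incomplete match at the 3′ end, was among the 5 most frequent in replicate 2 with 549 reads. It was not cut short: it spanned chr7:126445858-126463108, the whole gene. Its length is that of the leading model with the 418 bases of the last intron kept. Reads were nevertheless largely whole: 97.1% in replicate 1 and 97.6% in replicate 2 ran from exon 1 to exon 23.

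The 3′ end of Atp2a1 separates the adult from the neonatal form of SERCA1. Exon 22, of 42 bases, holds the stop codon of the adult form, and where it is skipped the frame runs on into exon 23 and ends 1001 codons from the start instead of 994. Both ends are shown from the GENCODE M21 transcripts on mm10, with the last 15 bases of exon 21 in lower case and the bases after it, up to and including the stop codon, in capitals. The capitals lie at chr7:126446582-126446586 for the adult and chr7:126446101-126446126 for the neonatal end, on the minus strand.
Atp2a1 adult end: ggaactatctggaggGATAA
Atp2a1 neonatal end: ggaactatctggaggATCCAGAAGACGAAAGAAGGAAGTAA

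Exon 22 was held by 200036 of 200339 informative reads in replicate 1 (99.849%) and by 193160 of 193398 in replicate 2 (99.877%), a mean of 99.863% ± 0.0199 (SD, n = 2). The adult end thus made up almost all of the Atp2a1 reads of both muscles. It was skipped in 303 reads of replicate 1 and 238 of replicate 2, and a direct splice from exon 21 to exon 23 was seen in 251 and 186 reads. The neonatal splice was therefore present, at 0.125% (95% Wilson interval 0.110 to 0.141) and 0.0956% (0.0828 to 0.110) of Atp2a1 reads, and these intervals touch at 0.110%. The difference in exon 22 was not called (p = 0.0179, adjusted p = 1.00, Fisher's exact test).

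Exon 22 was skipped more often than any of the 19 exons from 3 to 21, in both libraries. Those were skipped in 0.00207% to 0.0467% of informative reads, 4 to 92 reads each. Within this range the 5 exons from 3 to 7 were skipped in 0.0316% to 0.0467% of reads in replicate 1, and the 14 exons from 8 to 21 in 0.00498% to 0.0150%. Replicate 2 showed the same division, with 0.0142% to 0.0257% for exons 3 to 7 and 0.00207% to 0.00774% for exons 8 to 21. All 19 had a higher share of skipping reads in replicate 1. Of the 21 internal exons tested, 0 were called by Fisher's exact test with adjustment, beside 0.0224% of all internal exons tested, and 15 had an unadjusted p under 0.05. A read with an intron across several exons counts as skipping each of them, so these exons are not separate observations.

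The last intron of Atp2a1, between exons 22 and 23 and 418 bases long, was the one most often kept among introns 3 to 22. It remained in 608 reads of replicate 1 (0.303%, 0.280 to 0.328) and 747 of replicate 2 (0.385%, 0.359 to 0.414). Introns 1 and 2, which flank exon 2, could be judged in few reads: intron 1 was kept in 2 of 10 and 0 of 9, and intron 2 in 9 of 46 and 8 of 23. Among introns 3 to 21 the highest share kept was 0.0685%, for intron 11 in replicate 2, and 11 of these 19 introns were kept in under 0.01% of reads in both libraries. Apart from these, 463 reads of replicate 1 (0.230%) and 355 of replicate 2 (0.182%) ended inside intron 9. The choice of the 3′-most intron of Atp2a1 was tested over 4618 genes, of which 0.108% were called, and was not called: 99.2% of spliced reads used intron 22 in both libraries (adjusted p = 1.00, Fisher's exact test).

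**Figure D4:**
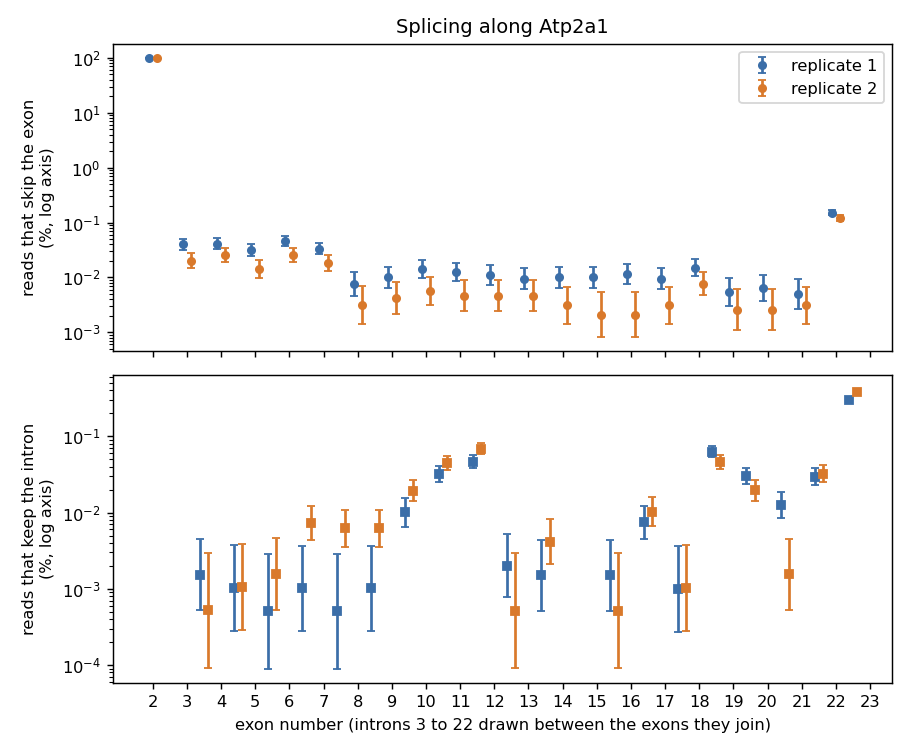
Percent of informative Atp2a1 reads that skip each internal exon (top) and that keep each of introns 3 to 22 (bottom), both on log axes against exon number, with 95% Wilson intervals; introns with 0 keeping reads are not drawn. Exon 2 is skipped in almost every read, exon 22 in 0.151% and 0.123%, and the last intron stands above the other introns drawn at 0.303% and 0.385%.

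Atp2a2, at chr5:122453513-122502225 on the minus strand, was mostly read as its annotated transcripts, in contrast to Atp2a1. Known transcripts took 77.0% of its reads in replicate 1 (147 of 191) and 80.0% in replicate 2 (866 of 1082). The leading model in both was the annotated 21-exon transcript, of 3984 bases and 998 codons, with 126 and 825 reads. The annotated 20-exon transcript, of 4486 bases and 1044 codons, had 21 and 40 reads. An unannotated 20-exon model of 4300 bases had 10 and 48 reads. Apart from exon 2, its internal exons were held by 99.4% of reads or more: over the 18 exons from 3 to 20, 6 skipping reads were seen in all. Of the 19 Atp2a2 exons tested, 0 were called by Fisher's exact test, beside 0.0224% of all internal exons tested, and 0 had an unadjusted p under 0.05.

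The annotated transcripts differ at the 3′ end, which sets the carboxyl terminus of the pump. In SERCA2a, the muscle form, exon 20 is spliced to exon 21 and the protein ends shortly after. In SERCA2b, the form of most tissues, exon 20 is read through into the intron, which adds a further hydrophobic stretch. The ends are shown from the GENCODE M21 transcripts on mm10, with the shared last 15 bases before the junction in lower case and the form's own coding bases with the stop codon in capitals. The capitals lie at chr5:122454291-122454304 for 2a and chr5:122457151-122457302 for 2b, on the minus strand.
Atp2a2 2a end: acctggaacaacccgCAATACTGGAGTAA
Atp2a2 2b end: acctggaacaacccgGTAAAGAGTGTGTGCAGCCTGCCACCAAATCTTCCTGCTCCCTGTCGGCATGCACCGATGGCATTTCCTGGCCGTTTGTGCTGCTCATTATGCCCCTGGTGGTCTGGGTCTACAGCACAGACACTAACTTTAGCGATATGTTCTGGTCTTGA

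The 2a form prevailed in both libraries. It had 161 reads in replicate 1 (119 CPM) and 996 in replicate 2 (732 CPM), while 2b had 24 reads (17.8 CPM) and 50 reads (36.8 CPM). Both forms were thus higher in replicate 2, 2a by 6.14-fold (95% interval 5.20 to 7.25) and 2b by 2.07-fold (1.28 to 3.35), and these intervals do not overlap. Of reads with either end, 2a made up 87.0% in replicate 1 (81.4 to 91.1) and 95.2% in replicate 2 (93.8 to 96.4), a mean of 91.1% ± 5.79 (SD, n = 2). The difference was tested as the use of the last intron of 2a among spliced Atp2a2 reads, which was 85.2% in replicate 1 and 93.1% in replicate 2. It was not called over the 4618 genes (p = 7.18e-04, adjusted p = 0.369, Fisher's exact test). It passed the threshold when models with 1 read were left out (a difference of 9.36 percentage points, adjusted p = 0.0359). A further end, in which exon 21 followed another exon through an intron at chr5:122454305-122456454, had 3 and 13 reads.

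**Figure D5:**
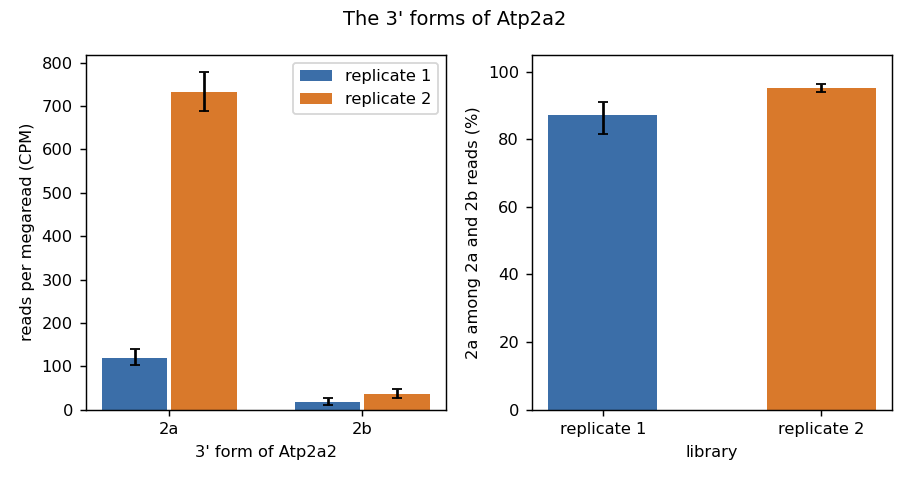
Level of the 2a and 2b forms of Atp2a2 in each library (left, CPM) and the share of 2a among reads of either form (right, percent); bars are read counts and shares, and error bars are 95% Wilson intervals. The 2a form stands at 119 CPM in replicate 1 and 732 CPM in replicate 2, the 2b form at 17.8 and 36.8 CPM, and the share of 2a is 87.0% and 95.2%.

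Atp2a3, at chr11:72961169-72993044 on the plus strand, was at the edge of detection. Its 2 reads in replicate 1 and 3 in replicate 2 all had different structures, all of them classed as incomplete matches to annotated transcripts. In replicate 2, 1 read, with a model of 5 exons and 4025 bases, kept the last intron of 2141 bases. Its last exon had 3569 bases, where the annotated one has 1355. The Atp2a3 reads covered between 5.75% and 50.4% of the 3114 coding bases of the annotated 22-exon transcript, always from the 3′ part. Endothelial, leukocyte and platelet markers, from cells in which SERCA3 is known, summed to low levels. The 6 endothelial markers summed to 103 and 77.2 CPM, the 6 leukocyte markers to 71.9 and 47.8 CPM, and the 3 platelet markers to 9.63 and 8.82 CPM. Most leukocyte reads were of Lyz2 (70 and 34) and Csf1r (24 and 25). Cd68 had 3 and 4 reads, Ptprc and Cd79a each had 0 and 1, and Cd3e had 0 in both libraries. Of the platelet markers, Pf4 had 12 and 9 reads, Itga2b 1 and 2, and Gp1bb 0 and 1. The part of these lists in the Atp2a3 reads was not tested.

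Both micropeptides are encoded by short reading frames, 31 codons in Sln and 52 in Pln, each within 1 exon. They are shown whole from the GENCODE M21 transcripts on mm10, because the question for these scarce genes is how many reads hold the frame at all. Capitals mark the start and stop codons. The frames lie on the plus strand at chr9:53853473-53853568 for Sln and chr10:53343864-53344022 for Pln.
Sln coding: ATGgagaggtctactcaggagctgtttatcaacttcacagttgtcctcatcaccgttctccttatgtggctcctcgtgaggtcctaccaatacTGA
Pln coding: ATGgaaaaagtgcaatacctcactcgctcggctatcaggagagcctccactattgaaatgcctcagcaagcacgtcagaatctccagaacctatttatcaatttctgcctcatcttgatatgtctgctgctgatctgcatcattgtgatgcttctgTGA

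All Sln reads, 5 in replicate 1 and 2 in replicate 2, were assigned to the annotated 2-exon transcript of 1318 bases and covered the whole frame. Sln was 0.397 times as high in replicate 2 (95% interval 0.0889 to 1.77), a difference that these read numbers cannot resolve. Pln reads were of several kinds. The whole frame was covered by the models of 4 of 10 reads in replicate 1 (2.96 CPM) and 7 of 22 in replicate 2 (5.15 CPM). In replicate 1 these 4 were the annotated 2-exon transcript of 2334 bases. In replicate 2, 3 reads were that transcript and 4 were an annotated 3-exon transcript of 771 bases that was not seen in replicate 1. The other reads, 6 and 14, were assigned to an unspliced model of 85 bases at chr10:53344183-53344267, and 1 read of replicate 2 to an unspliced model of 506 bases. Both edges of the 85-base model and of the 506-base model lie at the annotated 3′ ends of Pln transcripts, so the models may not give the true extent of these reads, and where the reads lie relative to the frame is not known. With annotated transcripts alone the log2 ratio of Pln was 0.85 (adjusted p = 0.774, Fisher's exact test).

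Other regulators of the pump were counted as a list of 24 symbols, of which 21 are in the annotation, Sln and Pln included. Of the 19 tested, 3 were higher and 1 lower in replicate 2 by Fisher's exact test, where 4.25% and 3.56% of all genes tested were, with a median log2 ratio of (CPM + 1) of 0.28 against -0.01 over all genes. Hrc, which encodes a calcium-binding protein of the reticulum lumen that interacts with the pump and with triadin, had 843 reads in replicate 1 and 2587 in replicate 2, 3.04-fold higher (95% interval 2.82 to 3.29; adjusted p = 4.12e-198, exact test). Gm34302, the gene of DWORF, a micropeptide that relieves the pump of its inhibitors, had 4 reads in replicate 1 and 45 in replicate 2, 11.2-fold higher (4.18 to 29.8; adjusted p = 5.80e-08, exact test). Ppp1r3a, a muscle glycogen-targeting subunit of protein phosphatase 1, had 55 and 131 reads, 2.36-fold higher (1.73 to 3.23; adjusted p = 1.48e-06, exact test). Camk2a, a calcium/calmodulin-dependent kinase gene, was lower in replicate 2, with 38 and 16 reads (adjusted p = 0.0365, exact test). By edgeR's exact test the first 3 remained called and Camk2a did not.

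The most abundant other regulators did not pass the test. Prkaca, the catalytic subunit of protein kinase A, which phosphorylates phospholamban, had 423 and 398 reads. S100a1, a calcium sensor of muscle, had 181 and 212 reads, and Camk2g, another calcium/calmodulin-dependent kinase gene, had 162 and 178. The remaining micropeptide genes of the family fall outside the rule for named genes and are given for completeness. Mrln, which encodes myoregulin, an inhibitor of the pump in skeletal muscle, had 104 and 134 reads (77.1 and 98.5 CPM), and 1810037I17Rik, the gene of another-regulin, had 24 and 35 (17.8 and 25.7 CPM). Smim6, the gene of endoregulin, had 0 reads in both libraries.

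Calcium pumps of other membranes were scarce, and none passed the test. Of 6 genes for pumps of the cell surface (Atp2b) and of the Golgi (Atp2c), 3 had enough reads to test. By Fisher's exact test 0 were called, beside 7.82% of all genes tested, and 0 had an unadjusted p under 0.05. By edgeR's exact test 0 were called, beside 1.87% of all genes tested. So few genes and reads cannot show that their levels were alike. Atp2c1 had 36 and 48 reads, Atp2b1 had 21 and 27, and Atp2b3 had 10 and 4.

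The genes that release and store the calcium differed between the libraries in both directions. Of 21 tested, 6 were higher and 3 lower in replicate 2 by Fisher's exact test, beside 4.25% and 3.56% of all genes tested, with a median log2 ratio of (CPM + 1) of -0.10. Casq1, the calsequestrin of fast fibres, was lower in replicate 2, with 5488 and 4587 reads, and Casq2, the calsequestrin of slow fibres and heart, was higher, with 72 and 141. Casq1 is also on the list of fast fibre markers and Casq2 on that of slow fibre markers, so these calls are counted in both lists. Trdn, which encodes triadin of the release complex, was higher with 704 and 1201 reads, as was Cacna2d1, a subunit of the voltage-gated calcium channel, with 48 and 96. Cacng1, another channel subunit, was lower with 148 and 95 reads, and so was Srl, which encodes sarcalumenin, a calcium-binding protein of the lumen, with 4045 and 3809. Tmem38a, a counter-ion channel of the reticulum, had 2380 and 2246 reads and Ryr1, the calcium release channel, had 1078 and 961, and neither passed the test. By edgeR's exact test 1 of the 9 calls remained, that of Trdn.

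Of the 5 calcium-binding proteins of the cytosol, 3 were lower in replicate 2 and 0 higher by Fisher's exact test, beside 3.56% and 4.25% of all genes tested, with a median log2 ratio of (CPM + 1) of -0.34. Pvalb, the parvalbumin of fast fibres, had 1413 reads in replicate 1 and 1124 in replicate 2. The calmodulin genes Calm3, with 640 and 469 reads, and Calm2, with 266 and 198, were the others that were lower. By edgeR's exact test 0 of the 5 were called, beside 1.87% of all genes tested. Fast fibre markers, a list that shares Pvalb and Casq1 with those above, did not move one way. Of 12 tested, 4 were higher and 7 lower in replicate 2 by Fisher's exact test, Pvalb and Casq1 among the lower. Their median log2 ratio of (CPM + 1) was -0.13, and 0 were called by edgeR's exact test, beside 1.87% of all genes tested.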

How the data were processed

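Long reads of 2 gastrocnemius libraries were analysed. The deposited values are raw counts, whole numbers of long reads per transcript model, not normalized. Per the file headers and deposited notes, reads were assigned to models on mm10 with GENCODE M21, and the annotation names TALON as its source. Neither the alignment tool with its settings nor the platform is given in the sources used here, so the placing of short exons could not be traced. Model ends can be those of annotated transcripts, so model length is not read length. The deposited exon coordinates and model lengths are in bases.

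CPM is a gene's summed count as a share of the library total. Spike-in reads (49103 and 20235) stayed in the totals but not among the genes tested. An internal exon was held or skipped only in reads that span it. Genes needed at least 10 reads summed, and exons and last introns at least 20 reads in each library. Tests were two-sided Fisher's exact tests (scipy 1.17.1) with Benjamini-Hochberg adjustment at 0.05, and edgeR 4.0.16 (R 4.3.3) with TMM scaling was an alternative. List ratios used log2(CPM + 1). Counts of 0 were limited at 3 reads. Tested on simulated data, the gene test recovered 62 of 100 genes changed 2-fold and 98 of 100 changed 4-fold and called 7 of 9120 unchanged genes. The simulated counts held counting error only, and changes were set in genes with at least 20 reads summed. With no variation between animals in it, the simulation cannot show how often such variation leads to a call. In like simulations, the exon test recovered 101 of 200 exons moved by 25 percentage points and called 1 of 39920 unchanged exons. The last intron test recovered 126 of 200 moved by as much and called 0 of 4418 unchanged. An exon or last intron that was not called can thus still differ between the libraries.

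The members, lists and alternatives were chosen with earlier results of these data known. The rule named the members, up to 4 genes per list with the most reads and up to 4 called with the largest log2 ratio, the 3 genes nearest in ratio to each member with at least 20 reads summed, the 5 models of each member with the most reads and member exons held by under 95% of reads. Sequences were cut from the GENCODE M21 transcripts. With 1 group there was no comparison between groups. 1 gene that the rule named is not reported here.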

Additional observations from a re-analysis of the deposited data

Results flagged for a closer look

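Reads were also placed on the strand opposite to the pump genes, which none of the comparisons used. Opposite to Atp2a1, 61 reads in replicate 1 and 94 in replicate 2 were found. Of these, 52 and 57 were assigned to Rabep2, the gene on that strand, and 9 and 37 to models with no annotated gene. Spliced antisense models with 2 and 11 reads had 1 intron with the same coordinates as intron 15 of Atp2a1. A further model, with 1 read in replicate 1, had 2 introns, both with coordinates of Atp2a1 introns. Opposite to Atp2a2, 19 reads in replicate 2 and none in replicate 1 were found, 10 of them assigned to Gm43361. No control samples exist for these values. Whether reads of the pump genes were placed on the wrong strand was not tested.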

How the results depend on the processing

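Of 77 recomputed values, 72 were labelled the same and 0 reversed. For a test, the same means the same direction and side of the threshold. For a number of calls it means a ratio within a set bound, and for a level or share a move of no more than the SD. With 2 libraries, leaving out 1 always moves a mean by less than the SD, so those values could not be labelled otherwise. Atp2a2 was called under all 7 alternatives for the gene level, at log2 ratios of 2.46 to 2.61. With edgeR's exact test at a dispersion of 0.01 the number of genes called fell from 730 to 175, and Atp2a1 at a log2 ratio of -0.06 was not called; that alternative changes the test, the scaling and the assumed dispersion together, and the cause was not tested. Per kilobase, Atp2a2 stood at 6.36 times Pln instead of 39.7 times, as the models of Pln reads are shorter. Among them is the unspliced model of 85 bases, which may not give the true extent of its reads, so the value per kilobase of Pln is uncertain. Among models with at least 2 reads, exon 2 of Atp2a1 was held by 0% of reads, because both reads with it were alone on their models, and the last intron of 2a differed by 9.36 percentage points and was called (adjusted p from 0.0359 to 0.452 over its alternatives); the cause was not tested. Leaving out mitochondrial and spike-in reads moved every log2 ratio by -0.03. Atp2a1 has no value with annotated transcripts alone or with its own reads left out. Leaving out a replicate gives the other library's value, from 142 to 796 CPM for Atp2a2 and from 87.0% to 95.2% for its 2a form. No paired analysis was possible because there is 1 group. Depth limits Atp2a3, Sln and Pln, with 5, 7 and 32 reads in both libraries together.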
